A study of Mus musculus with 2 samples.

Results

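Histone and DNA modifying enzymes were examined in regulatory T (Treg) cells lacking miR-125a. The members were the genes whose platform annotation symbol starts with Hdac, Kdm, Kmt2, Kat, Setd, Suv, Sirt, Dnmt or Prmt and a number, together with the TET enzymes, the core subunits of Polycomb repressive complex 2 (PRC2), Ehmt1, Ehmt2, Uhrf1, Dot1l, Crebbp and Ep300. Kdm5c, Kdm5d and Kdm6a were left out by this rule. It gave 80 genes, read by 185 probe sets, out of 18193 genes on the array. The rule uses names only, but it was set with earlier results of these data known. One sample came from miR-125a KO mice and the other from their wild-type (WT) littermates, both 6 to 8 weeks old. In each, splenic CD4+ T cells were enriched magnetically, the CD4+CD25hi fraction was sorted as Treg cells, and RNA of several mice was pooled in equal amounts. Neither the deletion's design nor the number of mice in a pool is given in the sources used here. Each pool was hybridised to 1 Affymetrix Mouse Genome 430 2.0 array, so the comparison has no replicate and no test.

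Chromatin is marked by enzymes that add and remove chemical groups on histone tails and on cytosines of DNA. Methyltransferases and acetyltransferases write these marks, demethylases, deacetylases and the TET dioxygenases erase them, and other proteins read them to open or silence genes. In Treg cells the DNA methylation state of enhancers at the Foxp3 locus is known to bear on how stably Foxp3 is expressed, and Ezh2, the catalytic subunit of PRC2, is known to be needed in activated Treg cells. A microRNA guides Argonaute proteins to messenger RNAs through its seed, the bases 2 to 8 of the mature strand.

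The mature strands of the deleted microRNA are shown because its deletion is the difference between the pools that the sample labels name. The pools may differ in other ways too, and which difference lies behind a ratio was not tested. Sequences and positions are those of RefSeq on GRCm38.p6, both from the plus strand, at chr17:17830817-17830840 for the 5p strand and chr17:17830855-17830876 for the 3p strand. Capitals mark the seed.
mmu-miR-125a-5p: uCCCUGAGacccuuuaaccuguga
mmu-miR-125a-3p: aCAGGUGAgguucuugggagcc
The deletion could not be checked on these arrays, since no probe set used here names the miR-125a precursor, and no seed match in the members was searched for.

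Signals are on the linear MAS5 scale, with a trimmed mean of 500 on both arrays. A log2 ratio is that of the miR-125a KO over the WT signal after adding 16.3 to each, which understates differences of dim genes. Each gene was read from its brightest probe set, and 75 of the 80 members had a mean signal of at least 62.3, the minimum that 10590 genes of the array passed. Of the Treg markers, Foxp3 had a signal of 694 in the miR-125a KO pool, against 1631 in the WT pool, a log2 ratio of -1.21. Of the other 6, all past the minimum, Il2ra (CD25), Ctla4 and Ikzf2 had log2 ratios of 0.27, 0.02 and 0.45, and Tnfrsf18, Cd4 and Cd3e had -0.08, -0.15 and -0.41. The 4 markers of CD8 T and NK cells past the minimum were all lower, with a summed signal over the whole list of 5 of 6211 in the miR-125a KO pool, against 9441 in the WT pool. Most of both sums was Klrd1, at 5065 in the miR-125a KO pool and 7919 in the WT pool. The 7 myeloid markers had sums of 469 in the miR-125a KO pool and 707 in the WT pool. The 4 past the minimum were lower, of which Itgax passed it through its WT signal alone, and of the 3 below it Lyz2 and Itgam were on the higher side. B cell markers had sums of 357 in the miR-125a KO pool and 390.4 in the WT pool, with Cd22 at 0.31 and Cd79b at -0.14. Plasma cell markers, mostly Xbp1, had 14723 in the miR-125a KO pool and 16430 in the WT pool, and basophil and mast cell markers 354 and 411. Their 3 and 2 markers past the minimum were below 0, while Jchain and Ms4a2, below the minimum, were above 0. None of the 4 neutrophil or 2 erythroid markers passed the minimum. Of 19 proliferation markers 18 had a ratio above 0, beside 51.0% of all genes. Their median log2 ratio was 0.21, with sums of 81668 in the miR-125a KO pool, against 69548 in the WT pool. The part of other cell types and of cycling cells in the results below was not tested. In a pooled bulk sample, fewer cells of a type and less RNA per cell cannot be told apart. The 2 arrays also limit the precision of every value.

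As a group, the modifying enzymes kept close to equal signals in both pools. None of the 75 members past the minimum differed by at least 2-fold, a size that 2.28% of all genes past it reached. At 1.5-fold, 1 member was higher in the miR-125a KO pool, Suv39h2, where 5.00% of all genes were. At the same size 1 member was lower, Tet2, where 5.79% of all genes were. A ratio above 0 was held by 37 of the 75, or 49.3%, beside 51.0% of all genes. The median log2 ratio was -0.01 for the members and 0.01 for all genes, and the members' interquartile range ran from -0.20 to 0.21, close to the -0.20 to 0.22 of all genes. Just inside the 1.5-fold line lay Kdm6b at -0.58 on the lower side and Prmt7 at 0.56 on the higher side.

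**Figure D1:**
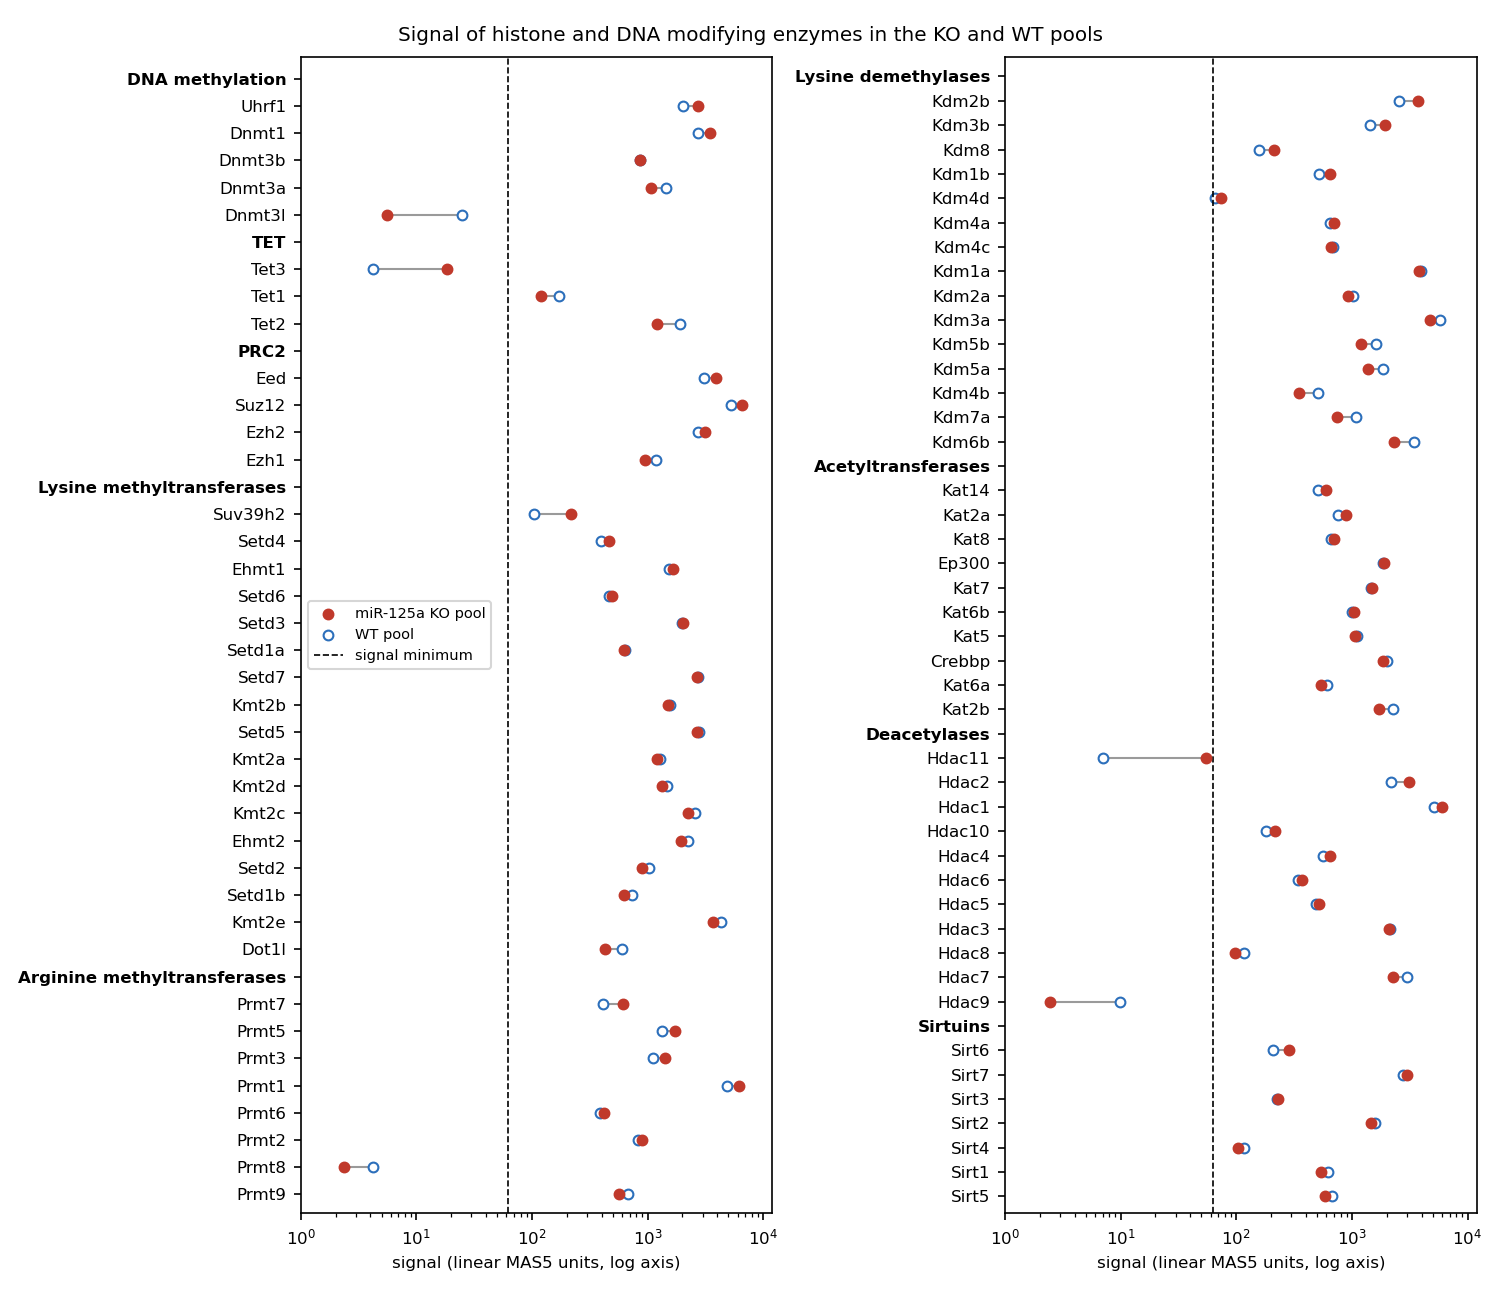
Signal of each of the 80 members in the miR-125a KO pool (filled points) and the WT pool (open points), from the gene's brightest probe set, on a log axis in linear MAS5 units. The points of most genes lie close together, and the wide gaps belong to the 5 members left of the dashed signal minimum of 62.3 and to Suv39h2.

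Repeat measurements came only from genes that several probe sets read. The spread of the log2 ratio between such probe sets, called the probe-set SD here, was estimated from 5037 genes, in 10 groups of signal. It ran from 0.37 for dim genes to 0.18 for bright ones, and covers neither variation between mice nor error common to all probe sets of a gene. Beyond 2 of these SDs lay 6 members, or 8.0%, beside 12.4% of all genes. Suv39h2, Hdac2 and Kdm2b were on the higher side, and Tet2, Kdm6b and Kdm7a on the lower side. Of 40 members with several probe sets past the minimum, 27 (67.5%) had all of them on 1 side of 0, beside 55.8% of the 5037 genes. In 10 of the 27 all were above 0 and in 17 all were below, where of all genes 1261 had all above and 1549 all below. The 17 included Tet2, Kdm7a, Kmt2c, Kmt2e, Kdm5a and Kdm5b.

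**Figure D2:**
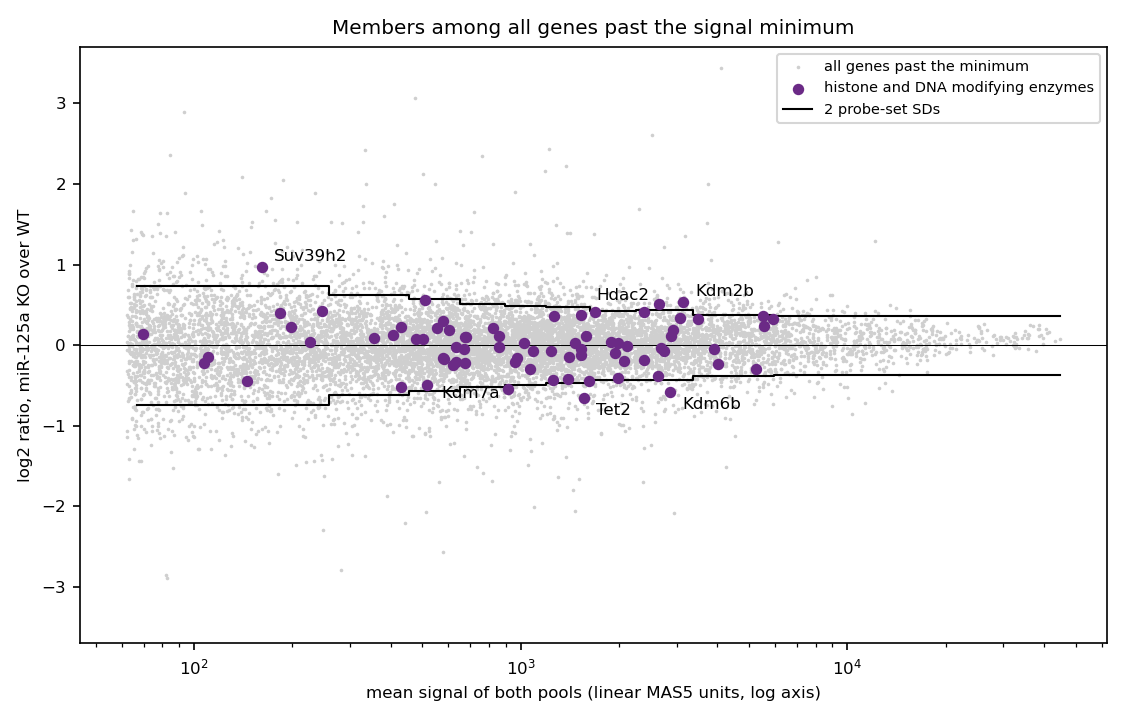
Log2 ratio, miR-125a KO over WT, against mean signal on a log axis for all 10590 genes past the minimum (grey) and the 75 members (coloured), with lines at 2 probe-set SDs. The 6 labelled members lie beyond those lines, 3 above and 3 below.

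The enzymes that copy DNA methylation at replication were higher in the miR-125a KO pool, and a de novo enzyme and both TET genes past the minimum were lower. Dnmt1, the maintenance DNA methyltransferase, had a signal of 3445 in the miR-125a KO pool, against 2718 in the WT pool, a log2 ratio of 0.34. Its other 2 probe sets, at 0.21 and 0.36, lay on the same side. Uhrf1, which brings Dnmt1 to hemimethylated DNA, had 2736 in the miR-125a KO pool, against 2045 in the WT pool, a log2 ratio of 0.42, with its other probe set at 0.36. Dnmt3a and Dnmt3b set up methylation on unmethylated DNA. Dnmt3a had 1064 in the miR-125a KO pool, against 1443 in the WT pool, a log2 ratio of -0.43. Of its other 4 probe sets, 3 were lower, at -0.36, -0.54 and -0.84, and the dimmest was higher, at 0.37, with 223 in the miR-125a KO pool and 169 in the WT pool. Dnmt3b stayed level on its brightest probe set, with 852 in the miR-125a KO pool and 867 in the WT pool (-0.03), and had -0.27 on the other.

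TET enzymes oxidise methylcytosine and so start its removal. In mouse Treg cells Tet2 and Tet3 are known to help keep Foxp3 enhancers demethylated. Tet2 had 1204 in the miR-125a KO pool, against 1912 in the WT pool, 1.58-fold lower, with a log2 ratio of -0.66 and a probe-set SD of 0.24. A second probe set of Tet2, nearly as bright, had 1368 in the miR-125a KO pool, against 1685 in the WT pool, a log2 ratio of -0.30. Both lay below 0, but the mean of the pair, -0.48, lay inside the 1.5-fold line. Tet1 had 121 in the miR-125a KO pool, against 170.3 in the WT pool, a log2 ratio of -0.45, and its other probe set past the minimum had -0.37. Tet3 lay below the minimum, with 18.4 in the miR-125a KO pool and 4.21 in the WT pool.

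PRC2 places methyl groups on lysine 27 of histone H3 (H3K27) and so represses genes. Its core subunits Eed, Suz12 and Ezh2 were higher by small amounts, and Ezh1, the alternative catalytic subunit of resting cells, was lower. The H3K27 demethylase Kdm6b was lower as well. The 250 bases before the annotated start of the 3 higher subunits are printed because these genes share a direction, with those of Suv39h2 and Tet2, the genes of highest and lowest ratio past the minimum. The windows are RefSeq's on GRCm38.p6, chr7:89980977-89981226 (minus strand) for Eed, chr11:79992856-79993105 (plus) for Suz12, chr6:47595031-47595280 (minus) for Ezh2, chr2:3474987-3475236 (minus) for Suv39h2 and chr3:133544391-133544640 (minus) for Tet2. Each is written in the direction of transcription, and capitals mark matches to the motifs searched on both strands, which were the E2F words TTTGGCGC and TTTCCCGC, the ETS word CCGGAAG and the word CCAAT of NF-Y sites, none of which contains another.
Eed: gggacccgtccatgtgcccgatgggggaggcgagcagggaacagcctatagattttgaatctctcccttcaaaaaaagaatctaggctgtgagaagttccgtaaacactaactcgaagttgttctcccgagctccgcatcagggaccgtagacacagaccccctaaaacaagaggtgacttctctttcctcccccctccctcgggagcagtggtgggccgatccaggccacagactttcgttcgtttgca
Suz12: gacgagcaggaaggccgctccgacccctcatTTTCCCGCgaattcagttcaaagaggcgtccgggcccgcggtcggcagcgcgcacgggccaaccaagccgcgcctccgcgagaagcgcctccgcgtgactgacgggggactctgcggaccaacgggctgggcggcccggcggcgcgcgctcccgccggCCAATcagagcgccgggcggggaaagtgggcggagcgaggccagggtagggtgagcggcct
Ezh2: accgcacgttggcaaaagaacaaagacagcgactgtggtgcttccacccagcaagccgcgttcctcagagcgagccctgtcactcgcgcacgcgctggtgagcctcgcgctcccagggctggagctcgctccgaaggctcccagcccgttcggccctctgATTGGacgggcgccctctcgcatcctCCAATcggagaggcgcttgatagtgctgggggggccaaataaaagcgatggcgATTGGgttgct
Suv39h2: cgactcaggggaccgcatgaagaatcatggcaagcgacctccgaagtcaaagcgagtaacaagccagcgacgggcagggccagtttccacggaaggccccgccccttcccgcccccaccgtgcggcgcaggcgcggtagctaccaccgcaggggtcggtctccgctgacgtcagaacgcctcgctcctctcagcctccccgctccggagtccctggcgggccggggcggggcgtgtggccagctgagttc
Tet2: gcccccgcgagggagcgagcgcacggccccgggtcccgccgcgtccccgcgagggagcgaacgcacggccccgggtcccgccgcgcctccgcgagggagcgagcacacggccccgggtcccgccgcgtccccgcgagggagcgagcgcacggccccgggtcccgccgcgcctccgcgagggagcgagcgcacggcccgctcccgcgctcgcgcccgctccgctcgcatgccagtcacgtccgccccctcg
Suz12 held 1 E2F word, starting 219 bases before the start, and 1 CCAAT 61 bases before it. Ezh2 held 3 CCAAT words, of which that 64 bases before the start reads CCAAT and those 90 and 11 bases before it read ATTGG, its reverse complement. Eed, Suv39h2 and Tet2 held none of these words. CpG pairs, the sites of DNA methylation, numbered 12 in Eed, 37 in Suz12, 23 in Ezh2, 27 in Suv39h2 and 51 in Tet2, beside a median of 16 in the windows of all genes past the minimum.

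Eed, the subunit that reads the mark PRC2 leaves, had 3875 in the miR-125a KO pool, against 3079 in the WT pool, a log2 ratio of 0.33. Suz12, a scaffold of the complex, had 6586 in the miR-125a KO pool, against 5269.5 in the WT pool, a log2 ratio of 0.32. Its 5 other probe sets past the minimum went both ways, with 0.20 on both of the next brightest and -0.28, -0.37 and 1.63 on the 3 dimmest. Ezh2 had 3112 in the miR-125a KO pool and 2737 in the WT pool, a log2 ratio of 0.18, smaller than its probe-set SD of 0.22. Ezh1 had 956 in the miR-125a KO pool, against 1177 in the WT pool, a log2 ratio of -0.30, with -0.55 on its other probe set. Kdm6b, the H3K27 demethylase JMJD3, had 2293 in the miR-125a KO pool, against 3447 in the WT pool, a log2 ratio of -0.58. Its other probe sets did not share 1 direction. The second had 1705 in the miR-125a KO pool, against 2040.4 in the WT pool (-0.26), and the dimmest 203 in the miR-125a KO pool and 181 in the WT pool (0.15). A probe set annotated to both Kdm6b and a neighbouring transcript, left out of the gene values, had 509.8 in the miR-125a KO pool, against 720.6 in the WT pool (-0.49).

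Dnmt1, Uhrf1, Ezh2, Eed, Suz12 and Suv39h2 are known to be expressed more in dividing cells, and were grouped after their values were seen. All 6 had a ratio above 0, with a median log2 ratio of 0.34, where 51.0% of all genes were above 0. With the grouping made after the values, neither this count nor the median without the 6 is a test. Of the 19 proliferation markers, 18 were above 0, and the median log2 ratio of the list was 0.21. Kif11 was below 0, at -0.26, with 0.30 and 0.46 on its other probe sets. Mki67, a marker of dividing cells, had 5027 in the miR-125a KO pool and 4495 in the WT pool (0.16), within its probe-set SD of 0.19. Rrm2, a subunit of ribonucleotide reductase, was named after its values were seen. It had 5841 in the miR-125a KO pool, against 3784 in the WT pool, a log2 ratio of 0.62. Among the 19 markers only the dim Tyms had a higher ratio, 0.87. Without the 6, the median of the other 69 members was -0.04. Whether the number of cycling cells bears on these 6 ratios was not tested.

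Methylation of lysine 9 of H3 (H3K9) marks silent heterochromatin. Suv39h2, a writer of this mark, had the highest ratio of the members past the minimum. It had 219 in the miR-125a KO pool, against 104 in the WT pool, 1.96-fold higher and a log2 ratio of 0.97. The gene was dim, with a probe-set SD of 0.37, and its other probe set past the minimum had 167 in the miR-125a KO pool, against 122 in the WT pool, a log2 ratio of 0.41. Both probe sets were on the same side, and their mean was 0.69. No probe set used here names Suv39h1, a gene of the fixed list, so it has no value. The writers of the lower methylation states stayed within 1 probe-set SD, with Ehmt1 (GLP) at 1646 in the miR-125a KO pool and 1525 in the WT pool (0.11), and Ehmt2 (G9a) at 1935 in the miR-125a KO pool and 2216 in the WT pool (-0.19). The erasers of this mark were split, 3 above 0 and 3 below, where 51.0% of all genes were above 0. Kdm3b had 1929 in the miR-125a KO pool, against 1445 in the WT pool (0.41), with -0.09 on its other probe set and a mean of 0.16 over both. Its paralog Kdm3a had 4729.7 in the miR-125a KO pool, against 5807 in the WT pool (-0.30). Kdm4b, of the family that also removes methyl groups from H3K36, had 350.1 in the miR-125a KO pool, against 509 in the WT pool (-0.52). Kdm4a, Kdm4c and the dim Kdm4d had log2 ratios of 0.11, -0.05 and 0.14.

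Methylation of lysine 4 of H3 (H3K4) marks promoters and enhancers in use. Counted here as its writers were the 5 Kmt2 genes, taken by family name and not by measured activity, with Setd1a, Setd1b and Setd7. All 8 had ratios below 0, where 51.0% of all genes were above 0, and their median log2 ratio was -0.11. The ratios were small, with 1 of the 8 (12.5%) beyond 1 probe-set SD, beside 40.5% of all genes. The count below 0 was 6 of 8 with equal array medians and 7 of 8 with quantile or loess scaling. The direction of the smallest ratios thus turned with the scaling. The 5 Kmt2 genes (MLL family) were below 0 under every scaling, with a median of -0.15. Kmt2e, counted as a writer by family name alone, had the lowest ratio, with 3691 in the miR-125a KO pool, against 4346 in the WT pool (-0.23). Its 3 other probe sets past the minimum had -0.54, -0.56 and -0.59. Kmt2c, which with Kmt2d methylates enhancers, had 2233 in the miR-125a KO pool, against 2549.5 in the WT pool (-0.19), with -0.37, -0.54 and -0.44 on its others. Kmt2d had 1334 in the miR-125a KO pool and 1481 in the WT pool (-0.15). Kmt2a, the founding MLL gene, had 1206 in the miR-125a KO pool and 1272 in the WT pool (-0.08), and Kmt2b had -0.04. Setd1a, Setd1b and Setd7 had -0.02, -0.22 and -0.04.

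Of the erasers of H3K4 methylation 3 of 4 had ratios below 0, where 51.0% of all genes were above 0. Their median log2 ratio was -0.24. Kdm1a was so near 0 that the count below 0 was 2 of 4 with the mean over probe sets and without cross-matching probe sets. Kdm5a, which removes the trimethyl mark, had 1367 in the miR-125a KO pool, against 1872 in the WT pool (-0.45), and its 3 other probe sets past the minimum lay between -0.47 and -0.35. Its paralog Kdm5b had 1194 in the miR-125a KO pool, against 1602 in the WT pool (-0.42), with -0.49 and -0.19 on the others. Of the flavin-dependent demethylases, Kdm1a (LSD1) was level, with 3827 in the miR-125a KO pool and 3968 in the WT pool (-0.05, and 0.06 on its other probe set). Kdm1b (LSD2) was the exception, with 641 in the miR-125a KO pool and 516 in the WT pool (0.30).

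**Figure D3:**
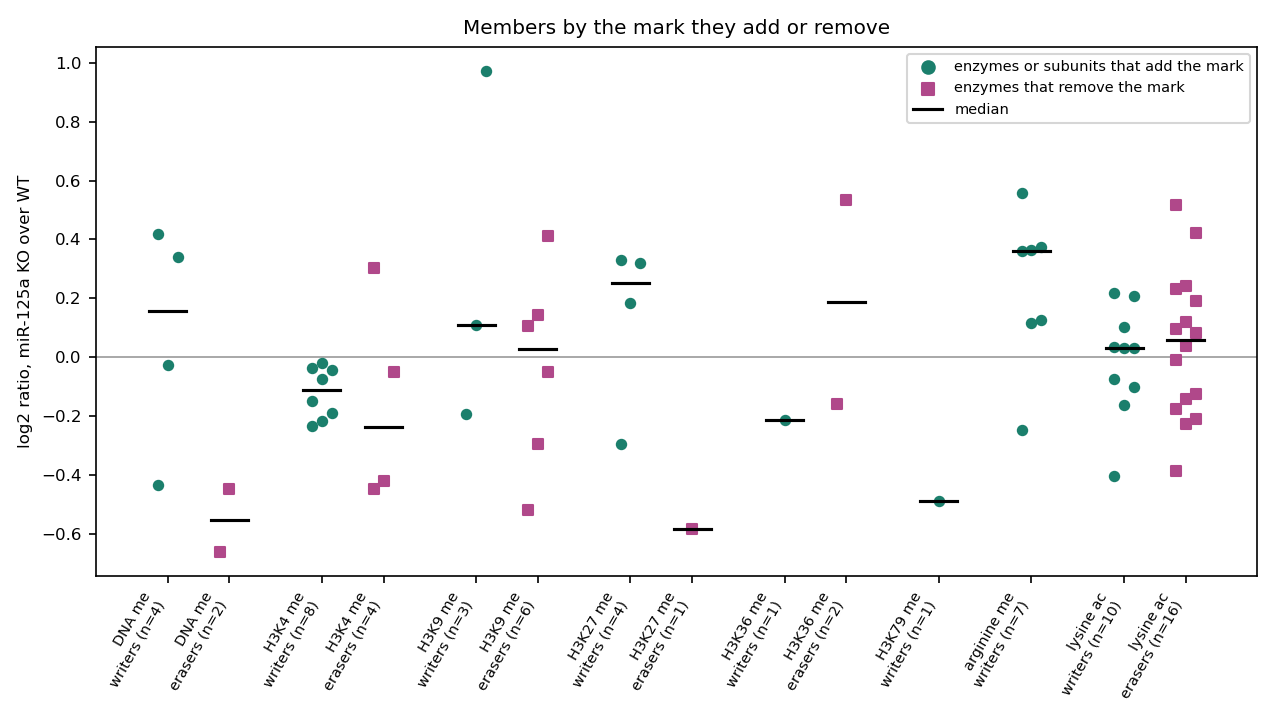
Log2 ratio, miR-125a KO over WT, of members past the minimum grouped by the mark they write or erase, with each group's median as a bar. Setd3, Setd4, Setd5, Setd6, Kdm7a and Kdm8 are not drawn, and the members counted as H3K4 writers, Kmt2e by family name alone, all lie between -0.23 and -0.02.

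Of the enzymes of H3K36 methylation, which accompanies transcription, Setd2 had 887 in the miR-125a KO pool and 1029.9 in the WT pool (-0.21), within its probe-set SD of 0.25. The erasers differed from each other. Kdm2b, which also recruits a Polycomb repressive complex 1 (PRC1) variant to CpG islands, had 3716 in the miR-125a KO pool, against 2564 in the WT pool, a log2 ratio of 0.53, with 0.30 on its other probe set. Its paralog Kdm2a had 921 in the miR-125a KO pool and 1030.4 in the WT pool (-0.16), with -0.11 and 0.42 on its others. Dot1l, the methyltransferase of H3K79, had 426 in the miR-125a KO pool, against 605 in the WT pool (-0.49), with -0.15 on its other probe set. Kdm7a, which removes dimethyl marks from H3K9 and H3K27, had 741 in the miR-125a KO pool, against 1090.3 in the WT pool, a log2 ratio of -0.55. A second Kdm7a probe set had 344 in the miR-125a KO pool, against 687 in the WT pool (-0.97), and another, near the minimum, had -0.12. Kdm8 had 211 in the miR-125a KO pool and 156 in the WT pool (0.40). Among SET domain genes outside these groups, Setd3, a methyltransferase of actin, had 0.03 and Setd5 -0.07. Setd6, which methylates the NF-kappaB subunit RelA, had 0.07 and on its other probe set 0.52. Setd4 had 465 in the miR-125a KO pool and 396 in the WT pool (0.22), with its others at -0.48 and 0.15.

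Arginine methyltransferases had a median of 0.36, with 6 of 7 members past the minimum above 0, beside 51.0% of all genes. The median was 0.21 with the mean over probe sets and 0.13 without cross-matching probe sets, which left 5 members. Prmt1, which makes most asymmetric dimethylarginine, had 6199.9 in the miR-125a KO pool, against 4824 in the WT pool (0.36). Prmt5, the main enzyme of symmetric dimethylarginine, had 1729.7 in the miR-125a KO pool, against 1330.2 in the WT pool (0.37). Prmt3, which methylates a protein of the small ribosomal subunit, had 1425 in the miR-125a KO pool, against 1104 in the WT pool (0.36), and its 3 other probe sets past the minimum lay between 0.06 and 0.46. Prmt7, which makes monomethylarginine, had the highest ratio of the class, with 609 in the miR-125a KO pool and 409 in the WT pool (0.56). Its other probe set, near the minimum, lay on the other side at -0.15. Prmt6 had 0.13, Prmt2 0.12 with -0.10 on its other probe set, and Prmt9 was lowest, with 564 in the miR-125a KO pool and 672 in the WT pool (-0.25).

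**Figure D4:**
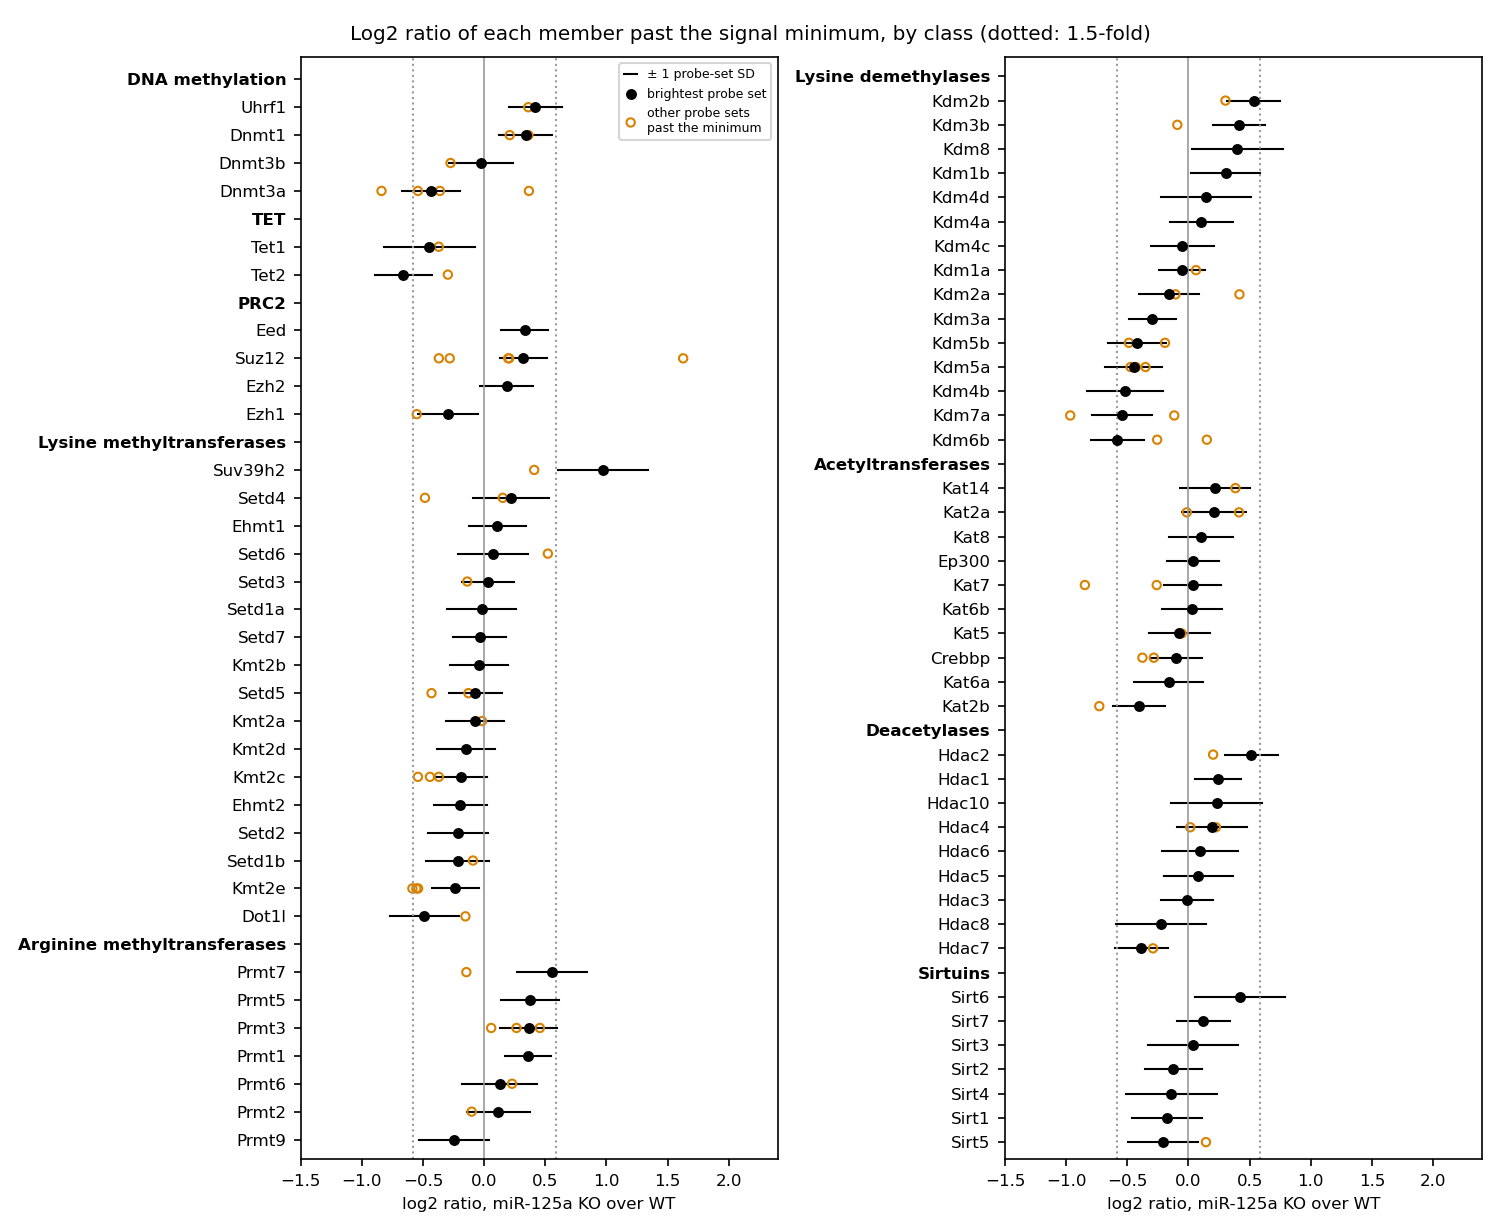
Log2 ratio, miR-125a KO over WT, of the 75 members past the minimum by class, with filled points for the brightest probe set, bars of 1 probe-set SD and open points for the gene's other probe sets past the minimum. Suv39h2 at 0.97 and Tet2 at -0.66 lie outside the dotted 1.5-fold lines, and the probe sets of Dnmt3a and Suz12 spread over both sides of 0.

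Acetyltransferases, which open chromatin by acetylating lysines, stayed close to equal in both pools. None of the 10 lay beyond 2 probe-set SDs, and 1 lay beyond 1, where 12.4% of all genes lay beyond 2 and 40.5% beyond 1. That was Kat2b (PCAF), with 1709 in the miR-125a KO pool, against 2264 in the WT pool (-0.40) and -0.73 on its other probe set. Its paralog Kat2a (GCN5) had 886 in the miR-125a KO pool and 764 in the WT pool (0.21), with 0.41 and -0.01 on its others. The paired coactivators Ep300 and Crebbp, whose acetyltransferase activity is known to support Treg cells, were level on their brightest probe sets. Ep300 had 1913 in the miR-125a KO pool and 1867 in the WT pool (0.03). Crebbp had 1875 in the miR-125a KO pool and 2011 in the WT pool (-0.10), with -0.38 and -0.28 on its other probe sets past the minimum. The mean over its 3 probe sets was -0.25. Kat5 (TIP60), described as an acetyltransferase of Foxp3 protein, had 1061 in the miR-125a KO pool and 1117 in the WT pool (-0.07). Kat8, the writer of H4K16 acetylation, had 703 in the miR-125a KO pool and 654 in the WT pool (0.10). Kat6a had 543 in the miR-125a KO pool and 609 in the WT pool (-0.16), and its paralog Kat6b had 0.03. Kat14 was highest, with 597 in the miR-125a KO pool and 510.4 in the WT pool (0.22). Kat7 had 0.03 on its brightest probe set, with -0.85 and -0.26 on dimmer ones.

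Among the zinc-dependent deacetylases, which remove acetyl groups and mostly repress, Hdac2 stood highest. It had 3123 in the miR-125a KO pool, against 2179.9 in the WT pool, a log2 ratio of 0.52 with 0.20 on its other probe set. Hdac1, its usual partner in repressor complexes, had 6040.5 in the miR-125a KO pool, against 5104 in the WT pool (0.24). Hdac3, the catalytic subunit of the NCoR and SMRT complexes, was level, with 2107 in the miR-125a KO pool and 2122 in the WT pool (-0.01). Hdac8 was dim, with 97.9 in the miR-125a KO pool and 117 in the WT pool (-0.23). In class II, Hdac7, which binds Foxp3 protein, was lowest, with 2273 in the miR-125a KO pool, against 2979 in the WT pool (-0.39) and -0.29 on its other probe set. Hdac4 had 644 in the miR-125a KO pool and 563 in the WT pool (0.19), with 0.01 and 0.22 on its others. Hdac6, a cytoplasmic tubulin deacetylase, had 367 in the miR-125a KO pool and 342 in the WT pool (0.09), and Hdac5 and Hdac10 had 0.08 and 0.23. Hdac9, whose loss is known to strengthen mouse Treg function, lay below the minimum in both pools, at 2.44 in the miR-125a KO pool and 9.81 in the WT pool.

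The NAD-dependent sirtuins had a median of -0.12, with 3 of 7 above 0, beside 51.0% of all genes. Sirt6, a deacetylase of chromatin, was highest, with 284 in the miR-125a KO pool and 208 in the WT pool (0.42, with a probe-set SD of 0.37). Sirt1, which deacetylates Foxp3 protein, had 545 in the miR-125a KO pool and 617 in the WT pool (-0.18). The mitochondrial Sirt3 had 230.3 in the miR-125a KO pool and 224 in the WT pool (0.04), and the nucleolar Sirt7 had 3013 in the miR-125a KO pool and 2771 in the WT pool (0.12). Sirt5, a mitochondrial enzyme that removes succinyl groups, was lowest, with 585 in the miR-125a KO pool and 678 in the WT pool (-0.21), and its other probe set lay on the other side at 0.14. Sirt2 and Sirt4 had -0.12 and -0.14. Apart from Tet3 and Hdac9, the members below the minimum were Dnmt3l, a cofactor of de novo methylation in germ cells, with 5.60 in the miR-125a KO pool and 24.6 in the WT pool, the brain enzyme Prmt8, with 2.38 in the miR-125a KO pool and 4.24 in the WT pool, and Hdac11.

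Promoter windows were found for 63 of the 75 members past the minimum. CCAAT lay in 25 of them (39.7%), beside 36.5% of the windows of 8682 genes past the minimum and 34.5% of all 27025 genes with a window. The ETS word lay in 9 (14.3%), beside 15.2% of the windows of genes past the minimum and 7.05% of all. The E2F words lay in 2 (3.17%), beside 2.82% of the windows of genes past the minimum and 1.35% of all. Of the 34 members with a window and a ratio above 0, 18 held CCAAT (52.9%), 7 the ETS word (20.6%) and 1 an E2F word (2.94%). Of the 29 with a ratio below 0, 7 held CCAAT (24.1%), 2 the ETS word (6.90%) and 1 an E2F word (3.45%). The windows of all genes were not split by direction, so these shares have no matching background. These are counts of letters in 1 window per gene, with no test, and they do not show binding.

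Most of these enzymes act in complexes, and 124 genes of such complexes and of writers and erasers outside the naming rule were measured. Of the 120 past the minimum, 61 had a ratio above 0 and 59 below, with a median log2 ratio of 0.00. None reached 2-fold, and the 1.5-fold line was passed by 5 genes on the higher side, beside 5.00% of all genes, and by 2 on the lower side, beside 5.79% of all genes. Smyd5, a SET and MYND domain methyltransferase, had 877 in the miR-125a KO pool, against 494 in the WT pool (0.81). Its second probe set had 0.71. Its dimmest went the other way, with 32.7 in the miR-125a KO pool and 105 in the WT pool (-1.30). That probe set passed the minimum through its WT signal alone. Riox2 (Mina), a JmjC oxygenase known as a repressor of Il4 in mouse T cells, had 2928 in the miR-125a KO pool, against 1721 in the WT pool (0.76), and its 3 other probe sets lay between 0.52 and 0.74. Its paralog Riox1 had 985 in the miR-125a KO pool, against 644 in the WT pool (0.60). The others were the meiotic H3K4 methyltransferase Prdm9, which passed the minimum through its miR-125a KO signal alone, at 85.4 in the miR-125a KO pool and 40.9 in the WT pool (0.83), and Hmg20b of the CoREST complex, at 161 in the miR-125a KO pool and 99.0 in the WT pool (0.62). On the lower side, Prdm2, an H3K9 methyltransferase, had 1378 in the miR-125a KO pool, against 2202 in the WT pool (-0.67), with -0.40 on its other probe set. Phf21a, which reads unmethylated H3K4 in the LSD1 complex, had 1014 in the miR-125a KO pool, against 1549 in the WT pool (-0.60), with its 3 others between -0.28 and -0.03.

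The counts by complex stand beside 51.0% of all genes above 0, and the lists are short. The accessory subunits of PRC2 were above 0 in 6 of 7 cases, with a median of 0.17. For the shared core of the H3K4 methyltransferase complexes (COMPASS) it was 6 of 8, with a median of 0.15. Beyond 1 probe-set SD lay 2 of these 7 and 3 of these 8, beside 40.5% of all genes. Of the PRC1 genes 6 of 15 were above 0, with a median of -0.05, and of the NuRD genes 3 of 9, with a median of -0.10. The Sin3, CoREST and BAF genes were divided, with 5 of 11, 3 of 7 and 10 of 17 above 0 and medians of 0.00, -0.04 and 0.06. For the NCoR and SMRT genes the count was 1 of 3, for the BET and HP1 readers 3 of 5, and for the methyl-CpG readers with TET-linked repair genes 4 of 8. The remaining writers and erasers had 14 of 30 above 0 and a median of -0.02.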

How the data were processed

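RNA of 1 pool per genotype was read on 1 array each. The authors deposited log2 values for 45101 probe sets. MAS5 is the tool named per the submitters' processing notes, with no version. The values were turned back to linear signals. A single gene was annotated to 34945 of them, and each of the 18193 genes was read from the one with the highest mean signal. All 80 member gene IDs were found in RefSeq's table of GRCm38.p6. The pseudocount, 16.3, is the 25th percentile of all signals, and the minimum, 62.3, the median over probe sets of the mean signal. The lowest deposited value was held by 473 probe sets in the miR-125a KO and 552 in the WT array, so these are bounds. The 9 hybridisation control probe sets had log2 ratios from -0.11 to 0.06.

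With 1 sample per genotype there is no test, and genes were counted by fold at 2 and 1.5. The probe-set SD is the SD, in 10 signal groups, of the difference between the log2 ratios of a gene's 2 brightest probe sets, scaled to a single probe set by dividing by root 2. The members and lists were chosen with earlier results of these data known. Any member may be named; full values went to those at 1.5-fold or more, to the highest and lowest of each class and to a fixed list, and partner genes were named at 1.5-fold or more. Promoter windows were those of the first listed start of each gene. Alternatives were 3 other scalings (equal medians, quantile, loess with span 0.3), pseudocounts of 1 and of the median, no filter, a filter at the 75th percentile, the mean over probe sets, and leaving out cross-matching probe sets. Scripts used Python 3.11.15, numpy 2.4.6, pandas 2.3.3, scipy 1.17.1, statsmodels 0.14.6 and matplotlib 3.10.9, and were tested on simulated data.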

Additional observations from a re-analysis of the deposited data

Results flagged for a closer look

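Hdac11, the single class IV deacetylase, lay below the signal minimum and so outside the counts, yet had a log2 ratio of 1.60. Its signal was 54.4 in the miR-125a KO pool and 7.02 in the WT pool, and its other probe set had 2.76 in the miR-125a KO pool and 4.35 in the WT pool, on the other side of 0. What lies behind the difference was not tested.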

How the results depend on the processing

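No paired analysis was possible because there is 1 sample per genotype and the labels give no replicate number. The count of members at 2-fold was 1 in place of 0 with equal medians, quantile normalization, loess scaling and a pseudocount of 1 (Suv39h2, at 1.01, 1.05, 1.05 and 1.07) and with no filter (Hdac11). Under these settings, in that order, 2.34%, 2.35%, 2.34%, 3.13% and 7.62% of all genes reached 2-fold. The count at 1.5-fold, 2 in the report, was 4 with quantile normalization and loess scaling, which add Prmt7 and Kdm6b. Those 4 were 5.33% of the members, beside 11.0% of all genes under either scaling. The 1.5-fold count was 5 with no filter and 1 with the filter at the 75th percentile, which Suv39h2 does not pass. It was also 1 with the mean over probe sets, where Tet2 had -0.48. The members' shares under these 3 settings were 6.25%, 1.61% and 1.33%, beside 21.8%, 6.54% and 10.1% of all genes. With equal medians it was 3, 2 higher and 1 lower, so 66.7% of the members' calls were higher, beside 54.7% of the calls of all genes. The number of members above 0 ran from 28 to 41. It was 41 of 75 (54.7%) with equal medians, which put 56.2% of all genes above 0. With the filter at the 75th percentile it was 28 of the 62 members kept (45.2%), beside 52.3% of all genes. Leaving out the 13 members whose probe sets lay on both sides, an alternative added after seeing the data, it was 29. The median of the members stayed between -0.04 and 0.03. The medians of the 9 classes moved by less than the probe-set SD, which is the spread of a single gene's ratio and not of a median. Some class medians crossed 0. That of the DNA methylation class (Dnmt genes and Uhrf1) ran from -0.03 to 0.20. For acetyltransferases the range was -0.02 to 0.07, and for lysine demethylases -0.11 to 0.005. Of the 42 members given full values, 39 kept 1 sign under each alternative that gave a value, and Dnmt3b, Hdac3 and Kdm1a did not. For 12 of the 42 at least 1 alternative gave none. Members outside the 42 were not followed gene by gene here, and some of those counted as H3K4 writers turned sign with the scaling. Without cross-matching probe sets Hdac2, Kdm2b and Kat2b had 0.20, 0.30 and -0.73, and averaging over probe sets gave Kdm6b -0.23 and Prmt7 0.21. None of these members turned its sign. With 2 arrays and no replicate, no ratio here has a biological error, and dim members such as Suv39h2, Tet1 and Sirt6 are the least precise.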
